A study of Mus musculus with 6 samples.

Results

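The 50 genes described here code for the MYC proteins with their partner and antagonists (9 genes) and for 41 factors that build ribosomes, transcribe ribosomal RNA or make polyamines. They were listed by name from these pathways, with earlier results of these data known. The rule used measured values only to choose 1 probe set per gene. On the arrays 47 of the 50 had a probe set that the platform annotation assigns to them alone, the one with the highest mean stood for the gene, and 45 passed a filter on low values, out of 12393 genes with such a probe set and 8693 that passed. *Max* and *Mxd1* lay below the filter, *Mrto4* was present only on a probe set shared with other genes, and *Npm3* and *Dkc1* are not analysed here. Of the 45, 42 were at or above the filter level on all 6 arrays, 2 on 5 and 1 on 4.

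RNA came from thymocytes of untreated 3-week-old mice of the C57BL6 strain. All mice were *Cd3e*-/-, so their thymocytes lack a component of the T cell receptor complex and stop at an immature stage. Of the 6 arrays, 3 are labelled SCLtg LMO1tg, for mice that carry *SCL* under the *Sil* promoter and *LMO1* under the *Lck* promoter, and 3 are labelled control, for mice without transgenes. Whether each array stands for a mouse of its own is not stated, so p-values cover only the spread between these arrays, which may be technical. The question of the series was which genes differ between pre-leukemic and normal immature thymocytes.

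The transgene check went against the labels. *Lmo1* read 5.11, 5.07 and 4.86 on the 3 arrays labelled *SCL-LMO1* and 6.64, 6.84 and 6.77 on those labelled control, all on the log2 scale of the deposited values. It was lower in all 3 arrays labelled *SCL-LMO1*, by a log2 difference of -1.74 ± 0.14 (SE, limma adjusted p = 0.000833). The endogenous gene of SCL, *Tal1*, did not pass the filter and read 4.55, 4.63 and 4.71 with the *SCL-LMO1* label and 4.35, 4.27 and 4.44 with the control label. The sources do not say whether either probe set reads its transgene. An exchange of the group labels would turn the sign of every difference given here, and it was not tested. Each difference below subtracts the mean with the control label from the mean with the *SCL-LMO1* label, and this direction is opposite to that of the gene list the study published for these arrays. *Cd3e* read between 8.41 and 8.72 on the 6 arrays, and the position of its probe set relative to the disrupted part of the gene is not given, so it checks nothing.

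MYC proteins bind DNA as dimers with MAX at the E-box sequence CACGTG and raise the transcription of growth genes, while the MXD proteins, MXI1 and MNT compete for MAX at the same sites and lower it. In developing thymocytes *Myc* is a target of Notch signaling and drives the growth of cells that pass the pre-T cell receptor checkpoint. Many MYC targets act in the nucleolus, where RNA polymerase I makes the long ribosomal RNA precursor and where assembly factors cut, modify and fold it onto ribosomal proteins. Box C/D particles guide the methylation of ribosomal RNA, box H/ACA particles guide its pseudouridylation, and further sets of factors build the small and the large subunit.

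No member passed limma at an adjusted p under 0.05 in either direction, where 14 of 8693 genes (0.161%) did. None passed at an adjusted p under 0.1 either (0.38% of all genes), and rank products, the test named in the study's methods, called 0 members higher (0.46% of all genes) and 0 lower (0.483%) at a percentage of false positives under 0.1. That threshold is looser than the one of the study's own list, and the filter on low values differs from the study's. At an unadjusted p under 0.05, 5 members had the higher mean in the arrays labelled *SCL-LMO1*, namely *Npm1*, *Gnl3*, *Wdr12*, *Srm* and *Odc1*. That is 11.1% of the members beside 6.3% of all genes. None was lower at that threshold, beside 3.14% of all genes. In 3 members, *Npm1*, *Polr1c* and *Srm*, every array labelled *SCL-LMO1* lay above every array labelled control, beside 7.32% of all genes, and in none did all lie below, beside 6.37%. A mean above that of the arrays labelled control was found in 33 of 45 members, beside 48.7% of all genes, and the median log2 difference was 0.17, beside -0.01 over all genes tested. The members share arrays and are not independent, and the p that misses the threshold does not show that a gene did not differ, so 95% intervals are given for the genes described.

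**Figure D1:**
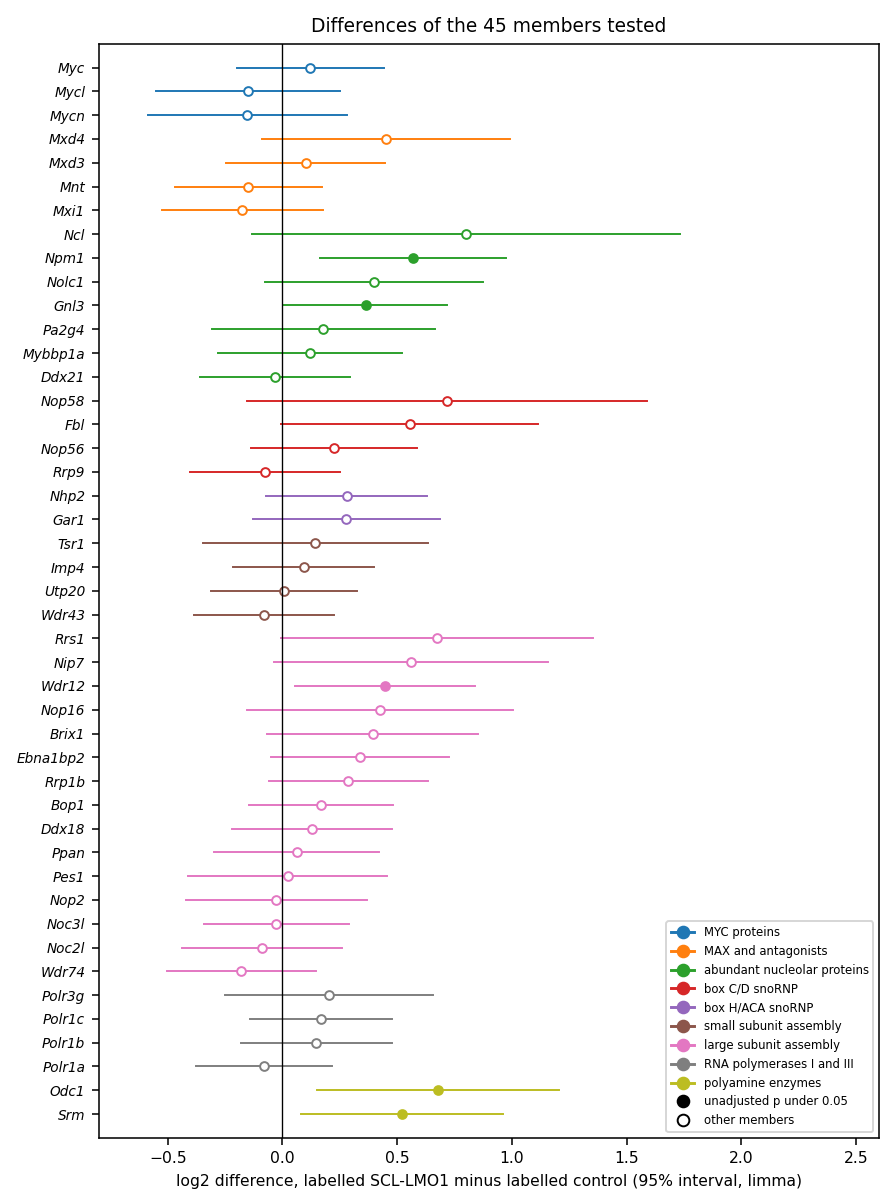
Log2 difference of each of the 45 members tested, arrays labelled SCL-LMO1 minus arrays labelled control (3 each), with its 95% interval from limma, ordered by role. Filled points are the 5 members with an unadjusted p under 0.05, and the differences run from -0.18 (*Wdr74*) to 0.80 (*Ncl*).

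The counts depended on single arrays. With 1 array left out, the number of members at an unadjusted p under 0.05 with a higher mean was 1 without control replicate 3, 3 without control replicate 2 and 16 without control replicate 1, beside 4.36%, 3.62% and 13.5% of all genes. It was 8 without *SCL-LMO1* replicate 1 and 2 without either of the other two, beside 9.87%, 3.34% and 2.8%. With array weights, which let limma count some arrays more than others, 5 members passed the adjusted threshold as higher (*Odc1*, *Rrs1*, *Npm1*, *Wdr12* and *Gnl3*). Of all genes, 6.29% passed it in either direction. At the unadjusted threshold 17 members were higher, beside 18.9% of all genes. With the replicate number as a block, 3 passed the unadjusted one, beside 4.04%. The number of members without overlap became 15 without *SCL-LMO1* replicate 1 (19.6% of all genes), 19 without control replicate 1 (19.8%) and 6 without *SCL-LMO1* replicate 2 or 3 (9.64% and 9.39%). It was 3 without control replicate 2 (9.77%), 4 without control replicate 3 (10.9%) and 5 after the arrays were quantile normalized once more (6.15%). In the lower direction it was 1 without *SCL-LMO1* replicate 1 (16.7% of all genes), 2 without replicate 2 (8.6%) and 1 without replicate 3 (7.94%), and it was 1 without control replicate 1 (20.7%), 1 without replicate 2 (10.3%) and 3 without replicate 3 (10%). With no filter 2 of 47 members lay wholly lower (6.88%), with quantile normalization 2 (7.21%) and with averaged probe sets 2 (6.63%). The mean level over the 45 members was 7.59, 7.73 and 7.72 with the *SCL-LMO1* label and 7.67, 7.44 and 7.31 with the control label. Control replicate 1 lay among the arrays labelled *SCL-LMO1*, and control replicates 2 and 3 lay below them all. The main axis of variation over all genes tested (first principal component, 54.1% of the variance) placed the arrays much alike. Its values were -5.16, 15.72 and 21.66 with the *SCL-LMO1* label and 8.93, -14.26 and -26.88 with the control label. This placing of the arrays is therefore not particular to the members. Control replicate 3 was the lowest array in 20 of the 45 members, beside 24.3% of all genes, control replicate 2 in 12, beside 19.4%, and control replicate 1 in 1, beside 12.5%.

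**Figure D2:**
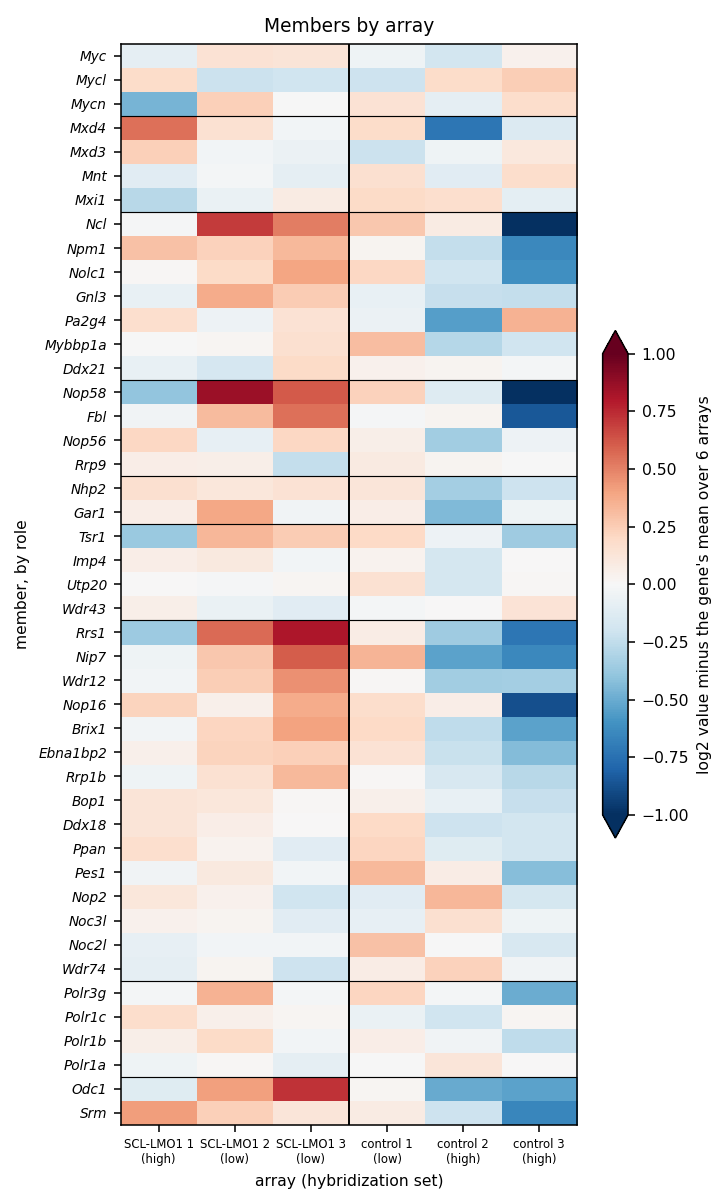
Level of each of the 45 members on each array as the log2 value minus that gene's mean over the 6 arrays, grouped by role, with colours capped at -1 and 1. Many ribosome biogenesis factors are blue in control 2 and control 3, with control 3 the lowest array in 20 members, while the MYC network genes at the top are mixed.

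The arrays also fell into sets by the signal of the hybridization controls, which are RNAs added at fixed amounts before hybridization. The low set held *SCL-LMO1* replicates 2 (mean signal 9.12) and 3 (9.36) with control replicate 1 (9.78). The high set held *SCL-LMO1* replicate 1 (10.56) with the remaining controls (10.76 and 10.78). Within the set of low signal the median difference over the members was 0.03, with 29 of 45 higher (50.6% of all genes). Within the set of high signal it was 0.24, with 34 of 45 higher (50.2%). In both sets 25 members were higher (30.4% of all genes) and 7 were lower (29.6%). With the set as a block in limma, the median difference over the members was 0.15, beside 0.001 over all genes. At an unadjusted p under 0.05, 5 members were higher in that fit, beside 5.96% of all genes. Beyond this fit, the part of this signal in the differences was not tested. Control replicate 2 also stood apart in the log2 signal of 3' minus 5' probe sets, a measure of RNA quality. It was 1.48 for *Actb*, against 2.26 to 2.86 on the other arrays, and 2.38 for *Gapdh*, against 3.01 to 3.51. The part of RNA quality in the differences was not tested either.

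Of the 3 MYC genes, none differed beyond the spread between arrays. *Myc* itself read 8.08, 8.32 and 8.31 with the *SCL-LMO1* label and 8.13, 7.99 and 8.22 with the control label, and this order of the groups is kept in what follows. The groups overlapped, with *SCL-LMO1* replicates 2 and 3 on top and control replicate 2 lowest. The difference of 0.12 ± 0.14 (SE) had a 95% interval of -0.20 to 0.44 and an adjusted p of 0.758, and it was -0.02 after the arrays were quantile normalized once more.

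*Mycn*, the paralog best known from the nervous system and also active in early blood progenitors, read 7.27, 7.98 and 7.74 against 7.89, 7.65 and 7.92. Its first *SCL-LMO1* array was the lowest of all 6 and its second the highest. The difference was -0.15 ± 0.19 (SE, adjusted p = 0.769, 95% interval -0.59 to 0.28), and it became 0.04 without *SCL-LMO1* replicate 1 and 0.13 with array weights. A second *Mycn* probe set gave -0.24, and one below the filter gave -0.03. *Mycl*, a further paralog, read 5.44, 5.04 and 5.06 against 5.05, 5.44 and 5.50, near the filter level and with overlapping groups. Its difference was -0.15 ± 0.18 (SE, adjusted p = 0.758), and 2 further probe sets below the filter gave -0.13 and -0.10.

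*Max*, the common partner, lay below the filter on every array and was not tested. It read 4.15, 4.24 and 4.05 against 4.32, 4.44 and 4.25, so the groups did not overlap and differed by -0.19. *Mxd1*, a MAX-binding repressor induced when cells differentiate, was also below the filter, at 4.52, 4.43 and 4.48 against 4.87, 4.53 and 4.92. Its groups did not overlap either, with a difference of -0.30. Such levels are close to the background of these arrays.

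The remaining antagonists pointed both ways. *Mxd4* read 9.21, 8.82 and 8.63 against 8.85, 7.94 and 8.53, where only the second control array stood apart. Its difference of 0.45 ± 0.24 (SE, adjusted p = 0.579, 95% interval -0.09 to 0.99) was -0.12 within the low hybridization set and 0.98 within the high one, and it was 0.20 without control replicate 2. The other *Mxd4* probe sets gave 0.04 and -0.06, and -0.22 for one below the filter, so the 4 probe sets of this gene did not share a direction.

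*Mxd3*, the family member expressed in dividing cells, read 6.28, 6.01 and 5.98 against 5.82, 6.001 and 6.15, a difference of 0.10 ± 0.15 (SE, adjusted p = 0.815). *Mxi1* read 6.92, 7.13 and 7.28 against 7.39, 7.37 and 7.10, a difference of -0.17 ± 0.16 (SE, adjusted p = 0.695). In both genes the groups overlapped. A second *Mxi1* probe set read 5.45, 5.25 and 5.41 against 5.63, 5.64 and 5.74 and did not overlap, with a difference of -0.30. *Mnt*, the antagonist found in most cell types, read 7.35, 7.45 and 7.37 against 7.62, 7.35 and 7.64, a difference of -0.15 ± 0.14 (SE, adjusted p = 0.715). Control replicate 2 lay with the arrays labelled *SCL-LMO1*, while the other two control arrays lay above. Of the 7 genes of the network that were tested, 3 had the higher mean in the arrays labelled *SCL-LMO1*.

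**Figure D3:**
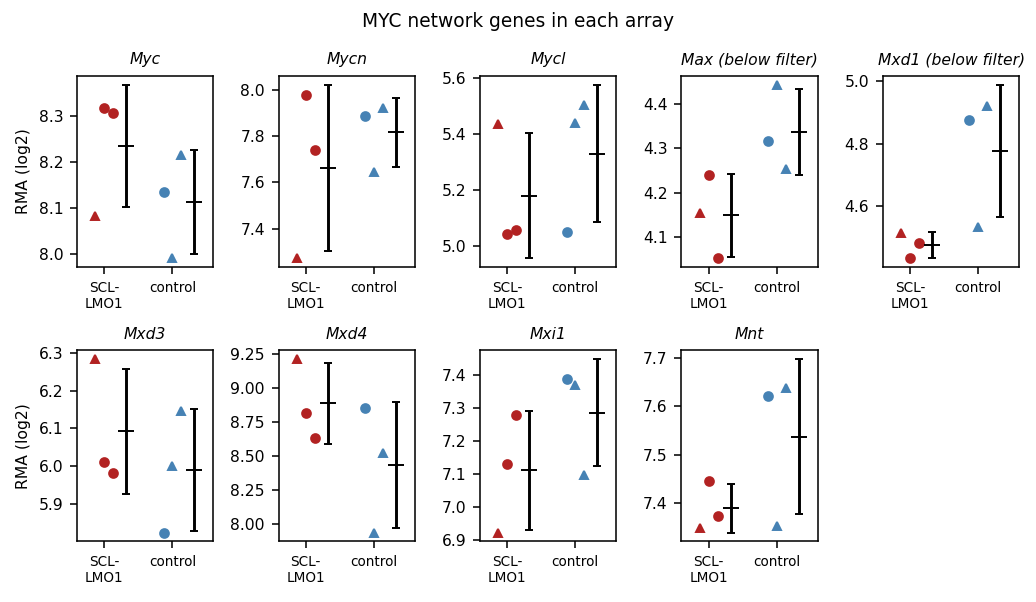
Log2 level of the 9 MYC network genes on each array (points; triangles are arrays of the high hybridization set and circles those of the low set) with the group mean and SD (bars, n = 3). The groups overlap in each of the 7 genes tested, while *Max* and *Mxd1*, below the filter, do not overlap and are higher in the arrays labelled control.

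The abundant proteins of the nucleolus were the group with the largest single difference, and 6 of its 7 measured members had the higher mean in the arrays labelled *SCL-LMO1*, with a median of 0.36. *Npm1* encodes nucleophosmin, a histone and ribosome chaperone of the granular nucleolus. It read 10.24, 10.17 and 10.27 against 9.97, 9.70 and 9.30. The first group was tight and lay wholly above the second, whose 3 arrays spread over a wider range. The difference was 0.57 ± 0.18 (SE, 95% interval 0.17 to 0.98, unadjusted p = 0.0108, adjusted p = 0.374 in limma), it was 0.25 within the low hybridization set and 0.74 within the high one, and a second probe set also gave 0.57. With 1 array left out it ran from 0.39 to 0.73, with unadjusted p from 0.00194 to 0.0343.

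*Ncl* encodes nucleolin, which binds ribosomal DNA and the precursor RNA. It read 9.65, 10.36 and 10.18 against 9.93, 9.74 and 8.12, where control replicate 3 stood far below the other 5 arrays. The difference of 0.80 ± 0.42 (SE, adjusted p = 0.572, 95% interval -0.13 to 1.73) was the largest among the members, and it was 0.23 without control replicate 3. The other 3 *Ncl* probe sets, 1 of them below the filter, gave 0.21, 0.57 and 0.46.

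*Gnl3*, which encodes nucleostemin, a GTPase of the nucleolus of dividing progenitor cells, read 8.992, 9.44 and 9.32 against 8.995, 8.84 and 8.83. The first arrays of the groups lay within 0.01 of each other, and the other two *SCL-LMO1* arrays lay above all controls. Its difference was 0.36 ± 0.16 (SE, unadjusted p = 0.0462, adjusted p = 0.520, 95% interval 0.01 to 0.72). The unadjusted p was above the threshold without *SCL-LMO1* replicate 2 (0.189) or 3 (0.124) and without control replicate 2 (0.105) or 3 (0.0948). Among the rest, *Nolc1*, a chaperone of small nucleolar particles, differed by 0.40, *Pa2g4*, a growth-regulated RNA-binding protein, by 0.18, *Mybbp1a*, a nucleolar repressor, by 0.12 and *Ddx21*, an RNA helicase, by -0.03, all with adjusted p of 0.577 or more.

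In the box C/D particles 3 of 4 members had the higher mean, with a median of 0.39. *Nop58*, a core protein of the particle, read 6.68, 7.93 and 7.69 against 7.30, 6.95 and 5.90. The low first *SCL-LMO1* array lay below 2 of the controls, and the spread within each group was of similar size to the difference of 0.72 ± 0.39 (SE, adjusted p = 0.580, 95% interval -0.16 to 1.59). That difference was 0.31 without control replicate 3, 0.47 without *SCL-LMO1* replicate 2 and 1.09 without *SCL-LMO1* replicate 1. *Fbl*, which encodes the methyltransferase fibrillarin, read 8.91, 9.25 and 9.49 against 8.93, 8.96 and 8.09. Control replicate 3 was again lowest, and the difference of 0.55 ± 0.25 (SE, adjusted p = 0.526, 95% interval -0.0043 to 1.11) was 0.27 without it. A second *Fbl* probe set gave 0.52. *Nop56*, the partner of *Nop58* in the particle, differed by 0.23 and *Rrp9*, which binds the U3 particle, by -0.08.

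Of the box H/ACA particle 2 proteins were measured. *Nhp2* read 9.47, 9.43 and 9.46 against 9.44, 8.98 and 9.11, so that only control replicate 1 reached the arrays labelled *SCL-LMO1*. The difference was 0.28 ± 0.16 (SE, adjusted p = 0.591). *Gar1* read 10.23, 10.54 and 10.12 against 10.23, 9.71 and 10.12, with overlap and a difference of 0.28 ± 0.18 (SE, adjusted p = 0.631).

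Factors of the small subunit differed little, with a median of 0.05 over 4 genes. *Tsr1*, a late assembly factor, read 5.39, 6.09 and 6.02 against 5.96, 5.71 and 5.41, a difference of 0.14 ± 0.22 (SE, adjusted p = 0.816) that was -0.04 with the hybridization set as a block. *Imp4*, a U3-associated protein, read 7.54, 7.57 and 7.44 against 7.51, 7.29 and 7.47, a difference of 0.09 ± 0.14 (SE, adjusted p = 0.807). It was -0.04 when the probe sets of the gene were averaged. Both genes overlapped between the groups. *Utp20* and *Wdr43*, both subunits of the small subunit processome, differed by 0.01 and -0.08.

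The large subunit had 15 measured factors, of which 11 had the higher mean in the arrays labelled *SCL-LMO1*, with a median of 0.17 and a range from -0.18 (*Wdr74*) to 0.67 (*Rrs1*). *Wdr12*, part of the PeBoW complex that acts in the maturation of the large subunit RNA, read 7.29, 7.56 and 7.77 against 7.33, 6.97 and 6.98. Control replicate 1 lay above the first *SCL-LMO1* array, and the others were apart. Its difference was 0.45 ± 0.17 (SE, unadjusted p = 0.0291, adjusted p = 0.461, 95% interval 0.06 to 0.84), and a second probe set gave 0.51. The unadjusted p was 0.0763 and 0.122 without *SCL-LMO1* replicate 2 and 3, and 0.0911 and 0.0747 when control replicate 2 and 3 were left out. The other proteins of that complex, *Pes1* and *Bop1*, differed by 0.02 and 0.17, with adjusted p of 0.967 and 0.678.

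*Rrs1*, which brings the 5S particle into the large subunit, read 6.44, 7.37 and 7.62 against 6.88, 6.46 and 6.08. *Nip7*, a further assembly factor, read 6.52, 6.84 and 7.17 against 6.90, 6.03 and 5.92. In both, *SCL-LMO1* replicate 1 lay below control replicate 1, and *SCL-LMO1* replicate 3 was the highest of the 6. The differences were 0.67 ± 0.30 for *Rrs1* (SE, adjusted p = 0.527) and 0.56 ± 0.27 for *Nip7* (SE, adjusted p = 0.544), and a second *Nip7* probe set gave -0.05. *Rrs1* was 1.02 without *SCL-LMO1* replicate 1 and 0.44 without *SCL-LMO1* replicate 3, and *Nip7* was 0.87 without control replicate 1. *Nop16* (0.43), *Brix1* (0.39), *Ebna1bp2* (0.34) and *Rrp1b* (0.29) also had the higher mean in the arrays labelled *SCL-LMO1*, with adjusted p of 0.571 to 0.614. *Nop16* read 4.88 on control replicate 3, below the filter level of that array, and 5.93 and 5.82 on the other controls. Further probe sets gave -0.07 for *Ebna1bp2* and -0.01 and 0.07 for *Rrp1b*. Those below the filter gave 0.05 for *Nop16* and 0.51 for *Brix1*. *Ddx18* (0.13) and *Ppan* (0.06) were nearer to 0, and *Nop2*, *Noc3l* and *Noc2l* differed by -0.03, -0.03 and -0.09.

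The polymerase genes differed little. *Polr1c*, a subunit shared by RNA polymerases I and III, read 8.58, 8.46 and 8.43 against 8.33, 8.21 and 8.42. The groups did not overlap, but *SCL-LMO1* replicate 3 and control replicate 3 were within 0.01 of each other, and the difference was 0.17 ± 0.14 (SE, adjusted p = 0.676). A second probe set of the gene read 6.44, 6.80 and 6.50 against 6.39, 6.25 and 6.01, also without overlap, a difference of 0.36. *Polr3g*, a subunit of RNA polymerase III found mostly in undifferentiated cells, read 5.25, 5.62 and 5.25 against 5.48, 5.25 and 4.77, with overlap and a difference of 0.20 ± 0.20 (SE, adjusted p = 0.720). The large subunits of RNA polymerase I pointed both ways, at -0.08 for *Polr1a* and 0.15 for *Polr1b*, and all 3 *Polr1a* probe sets were below 0.

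Both polyamine enzymes passed the unadjusted threshold. *Odc1* encodes ornithine decarboxylase, the first enzyme of polyamine synthesis and a long-known MYC target. It read 8.35, 8.89 and 9.20 against 8.49, 7.97 and 7.94. The first *SCL-LMO1* array lay just below the first control array, and the other arrays were well apart. The difference was 0.68 ± 0.24 (SE, unadjusted p = 0.0173, adjusted p = 0.407, 95% interval 0.15 to 1.21), and it was 0.55 within the low hybridization set and 0.39 within the high one. Without *SCL-LMO1* replicate 3 it was 0.48 (unadjusted p = 0.0773), without control replicate 2 0.60 (0.0629) and without control replicate 3 0.58 (0.0521). Further *Odc1* probe sets gave 0.32 and 0.99, the second without overlap.

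*Srm*, which encodes spermidine synthase, read 8.51, 8.34 and 8.22 against 8.18, 7.89 and 7.44. The groups did not overlap, and the order of the arrays differed from that of *Odc1*, with *SCL-LMO1* replicate 1 on top. Its difference was 0.52 ± 0.20 (SE, unadjusted p = 0.0255, adjusted p = 0.449, 95% interval 0.08 to 0.96), at 0.10 within the low set and 0.85 within the high one. It was 0.32 (unadjusted p = 0.0901) without control replicate 3, and without *SCL-LMO1* replicate 1 or 2 the unadjusted p was 0.0776 and 0.0560.

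**Figure D4:**
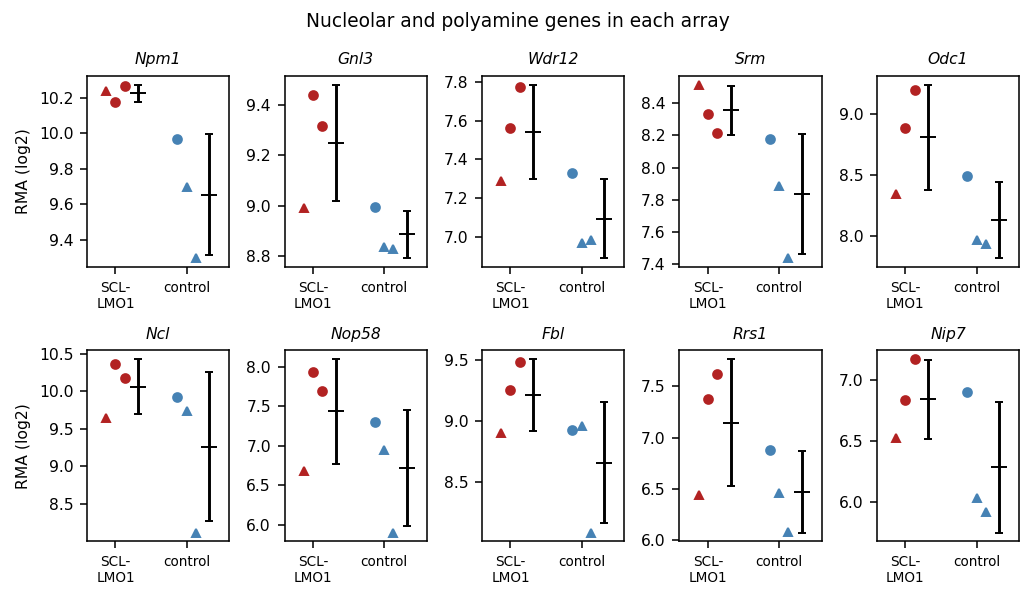
Log2 level of 10 members on each array (points; triangles are arrays of the high hybridization set and circles those of the low set) with the group mean and SD (bars, n = 3). The upper row holds the 5 members with an unadjusted p under 0.05 and the lower row 5 further members with large differences, in each of which control 3 is the lowest array.

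Other probe sets of the members gave a mixed account. Beyond the chosen ones, 32 probe sets of 23 tested members passed the filter, and 22 of them lay on the same side of 0 as the chosen probe set. Their differences ran from -0.30 to 0.99, with 20 above 0. All kept probe sets of a gene lay on 1 side of 0 for *Ncl*, *Npm1*, *Nolc1*, *Fbl*, *Wdr12*, *Nhp2*, *Polr1c*, *Polr1a* and *Odc1*, among others, and on both sides for *Mxd4*, *Imp4*, *Nip7*, *Ddx18*, *Ebna1bp2* and *Pa2g4*, among others.

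Promoter sequence was read for 44 of the 50 genes, over 250 bases before and 50 after an annotated start, from RefSeq on build GRCm38.p6. That start is not always the outermost one of the gene, for example in *Max*, *Mnt* and *Wdr43*. For 4 members there were several windows. The E-box CACGTG, which reads the same on both strands, was present in 10 of the 44 (22.7%), beside 11.6% of 7045 genes tested on the arrays that have a promoter entry and 8.09% of all 27025 genes with one. The variant CACGCG, read on the other strand as CGCGTG, was counted separately, and no site counts as both. It was present in 13 (29.5%), beside 19.6% and 10.5%. The genes with CACGTG were *Max*, *Mxd4* and *Mnt* of the network itself, with *Imp4*, *Nop2*, *Utp20*, *Pes1*, *Mybbp1a*, *Tsr1* and *Wdr43*. The 9 of them that were tested had a median difference of 0.02 (range -0.15 to 0.45), and the 30 tested genes with an entry but without the motif had one of 0.19 (range -0.18 to 0.80). *Rrs1* (0.67), *Npm1* (0.57), *Fbl* (0.55), *Srm* (0.52), *Bop1* (0.17) and *Myc* (0.12) had no promoter entry and are in neither median. A match describes letters in a window and not a bound site. The following 30 bases around the motif, in capitals, are shown for the network genes and for the 2 assembly factors with the motif before the start, each on the strand of its gene:
Max (chr12:76962234-76962263, minus strand): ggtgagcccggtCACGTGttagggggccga
Mxd4 (chr5:34187912-34187941, minus strand): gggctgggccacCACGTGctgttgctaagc
Mnt (chr11:74830789-74830818, plus strand): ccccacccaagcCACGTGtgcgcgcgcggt
Imp4 (chr1:34439696-34439725, plus strand): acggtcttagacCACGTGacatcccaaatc
Nop2 (chr6:125131811-125131840, plus strand): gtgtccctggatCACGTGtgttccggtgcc

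*Odc1* and *Ncl*, among the members with large differences, had no CACGTG in the window. Their 250 bases before the start are shown to set them beside the windows above. The *Odc1* sequence is 80% G or C and holds the CACGCG variant once on each strand (capitals), 180 and 101 bases before the start, and the *Ncl* sequence is 69.6% G or C and holds neither motif, which says only that these letters are not in this window:
Odc1 (chr12:17544623-17544872, plus strand): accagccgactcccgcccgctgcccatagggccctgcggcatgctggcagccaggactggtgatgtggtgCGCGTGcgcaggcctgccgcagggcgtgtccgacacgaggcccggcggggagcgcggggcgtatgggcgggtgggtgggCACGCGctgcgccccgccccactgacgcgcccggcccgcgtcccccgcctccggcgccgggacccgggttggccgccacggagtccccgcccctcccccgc
Ncl (chr1:86359456-86359705, minus strand): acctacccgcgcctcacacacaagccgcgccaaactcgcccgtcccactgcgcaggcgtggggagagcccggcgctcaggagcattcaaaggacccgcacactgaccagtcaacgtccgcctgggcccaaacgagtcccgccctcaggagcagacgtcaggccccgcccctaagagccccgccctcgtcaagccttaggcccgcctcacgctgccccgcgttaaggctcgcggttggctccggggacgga

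Further genes of the same pathways were read from lists of pathway genes. Of 99 other ribosome assembly factors 79 were tested. None passed the adjusted threshold, 4 were higher (6.3% of all genes) and none lower (3.14%) at an unadjusted p under 0.05, and 54 had the higher mean in the arrays labelled *SCL-LMO1* (48.7% of all genes), with a median of 0.09. These shares of all genes hold for the lists that follow as well. The largest differences were 0.58 for *Nmd3*, the export adaptor of the large subunit, 0.56 for *Nol7* and 0.51 for *Utp18*, with adjusted p of 0.510 to 0.521. Of 37 other genes of RNA polymerases I and III 22 were tested, 13 with the higher mean and a median of 0.07. None passed the adjusted threshold, 2 were higher and 1 lower at the unadjusted one, and *Rrn3*, which recruits RNA polymerase I, differed by 0.59 (adjusted p = 0.571).

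Of 22 further partners and regulators of MYC, 18 were tested, with a median of -0.04 and 8 of 18 higher. None passed the adjusted threshold, and the 2 at an unadjusted p under 0.05 were the ubiquitin ligase genes *Skp2* (0.80, adjusted p = 0.164) and *Fbxw7* (0.60, adjusted p = 0.416), both of whose products mark MYC for degradation. Both were without overlap between the groups. *Fbxw7* encodes the ligase that also degrades Notch and cyclin E.

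Of 41 growth genes known as MYC targets outside the nucleolus, 35 were tested, and 29 had the higher mean, with a median of 0.18. At the unadjusted threshold 7 were higher, beside 6.3% of all genes, and none lower, and none passed the adjusted one. The 3 largest differences were 0.84 for the mitochondrial chaperone *Hspd1* (adjusted p = 0.580), 0.80 for *Ppat*, the first enzyme of purine synthesis (adjusted p = 0.416), and 0.69 for the cap-binding factor *Eif4e* (adjusted p = 0.285). Their mean level per array lay from 9.01 to 9.15 with the *SCL-LMO1* label and from 8.70 to 8.99 with the control label.

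Cell cycle genes differed on average in the same direction as the members and by more. All 27 tested of 30 had the higher mean in the arrays labelled *SCL-LMO1*, with a median of 0.63. At an unadjusted p under 0.05 22 were higher (6.3% of all genes), 20 did not overlap (7.32%), and none passed the adjusted threshold, with a lowest adjusted p of 0.0723. Their mean level per array was 8.16 to 8.44 with the *SCL-LMO1* label and 7.61 to 7.78 with the control label, so this list separated the groups where the members did not. The largest differences were 1.06 for the replication licensing factor *Cdc6* (adjusted p = 0.200), 0.91 for the proliferation marker *Mki67* (adjusted p = 0.188) and 0.88 for the ribonucleotide reductase subunit *Rrm2* (adjusted p = 0.132). The study names *Cdc6* among its down-regulated genes, which is opposite to the direction here. In bulk RNA more dividing cells and more RNA of these genes per cell cannot be told apart, and the part of dividing cells in the members' differences was not tested.

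**Figure D5:**
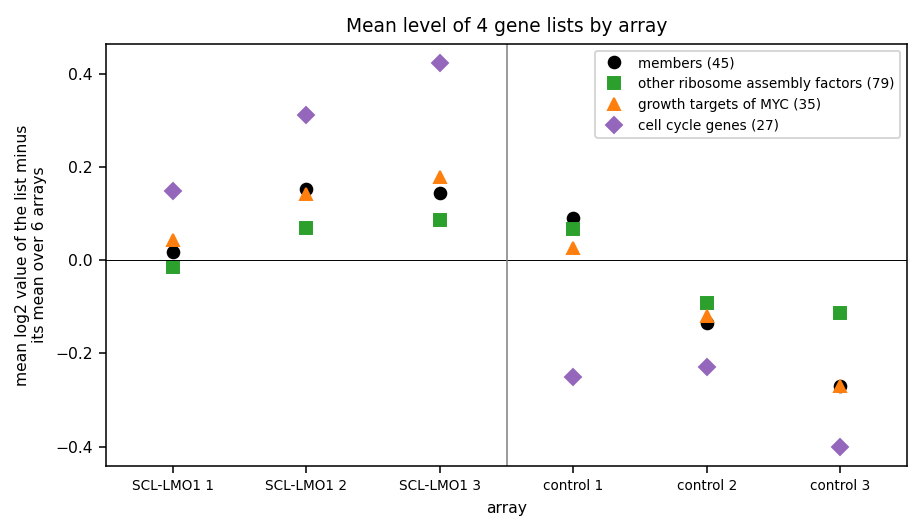
Mean log2 level of 4 gene lists on each array, each minus its own mean over the 6 arrays, for the members (45 genes), other ribosome assembly factors (79), growth targets of MYC (35) and cell cycle genes (27). The cell cycle genes are above 0 in the 3 arrays labelled SCL-LMO1 and below 0 in the 3 labelled control, while the members and the assembly factors put control 1 among the arrays labelled SCL-LMO1.

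Markers of other cells in the thymus were also unequal. Of 20 neutrophil markers 15 were tested, 11 had the higher mean in the arrays labelled *SCL-LMO1*, and the mean level was 6.45 to 7.09 there and 5.62 to 6.24 with the control label, led by *S100a8* (2.09, adjusted p = 0.0598), *Ngp* (1.76, adjusted p = 0.207) and *Camp* (1.54, adjusted p = 0.259). Of 15 erythroid markers 10 were tested, 7 had the higher mean, and the mean level was 6.38 to 7.27 against 6.19 to 6.40, with *Hba-a1* below the filter and *Car2* (1.09, adjusted p = 0.305), *Slc4a1* (1.07, adjusted p = 0.459) and *Tmcc2* (1.01, adjusted p = 0.480) in front. Within the low hybridization set 9 of the 10 were higher, with a median of 0.62. Within the high set 3 were higher, with a median of -0.05, and *Slc4a1* and *Tmcc2* differed by -0.047 and -0.0004 there. *Slc4a1* is also among the down-regulated genes that the study names, opposite to its difference over the 6 arrays here. Of 12 B cell markers 9 were tested, 3 had the higher mean, and the mean level was 6.14 to 6.31 against 6.35 to 6.61, with *Pax5* and *Ebf1* below the filter and *Ms4a1* (-0.77, adjusted p = 0.299) and *Cd79a* (-0.64, adjusted p = 0.164) lowest.

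For macrophage and dendritic cell markers, 14 of 16 were tested and 5 had the higher mean, at levels of 7.18 to 7.56 against 7.18 to 7.41, and *Lyz1* differed most (1.05, adjusted p = 0.338). Within the low hybridization set 4 of the 14 were higher, with a median of -0.11. Within the high set 13 were higher, with a median of 0.15. For thymic stroma, 9 of 15 were tested and 3 had the higher mean, at 6.32 to 6.68 against 6.34 to 6.52, with *Krt14*, *Col1a1*, *Col3a1*, *Cdh5* and *Ly75* below the filter and *Epcam* differing most (0.57, adjusted p = 0.481). The lowest was *Pecam1* (-0.49, adjusted p = 0.473), without overlap between the groups. No marker of these 5 lists passed the adjusted threshold. The part of these cells in the members' differences was not tested. Of 18 genes of immature thymocytes, the stage at which *Cd3e*-/- thymocytes stop, 15 were above the filter, among them *Ptcra*, *Rag1*, *Il2ra* and *Thy1*, with *Cd8a* below it.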

How the data were processed

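RNA of thymocytes was hybridized to 6 Affymetrix mouse arrays. The deposited table gives a log2 level for each of 22690 probe sets on each array, which the authors obtained by RMA (affy package). MAS5 absent calls were used by the authors to remove probe sets before their rank products test, but the table was not reduced in this way. Versions of RMA, affy and MAS5 are not stated. Only log2 levels were used, and the arrays carry no read depth: their number limits the precision.

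In the platform annotation 20393 probe sets carry 1 gene, 691 carry several and 1606 are unlisted, and 20364 of the first kind matched a RefSeq gene number. Probe sets had to reach the array's own 40th percentile on 3 or more of the 6 arrays. The kept probe set with the highest mean then stood for its gene, for 8693 of 12393 genes. The group difference was fitted with limma (version 3.58.1, R 4.3.3) without covariates, and p-values were adjusted by Benjamini-Hochberg over the 8693 genes, with a threshold of 0.05. Rank products used the 9 pairwise differences and 100 permutations. Fits were tested on simulated data. Residuals of arrays with the same replicate number correlated at -0.64, 0.01 and -0.38, so equal numbers were not treated as pairs.

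The genes and the 11 lists beside them (325 entries) were chosen with earlier results of these data known, as was the hybridization set. Named array by array are the MYC network genes, those past a threshold, and the 2 with the largest difference in each role, and of each list up to 3 genes. The variant motif CACGCG was added after the first motif was fixed. Alternatives were no filter and a 60th percentile filter, quantile normalization, median centring, a trend and robust variance, array weights, a replicate block, the hybridization set as a block, averaging the probe sets of a gene, and each array left out in turn.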

Additional observations from a re-analysis of the deposited data

How the results depend on the processing

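With array weights, 5 members passed the adjusted threshold as higher (*Odc1*, adjusted p = 0.0289, *Rrs1*, 0.0440, *Npm1*, 0.0479, *Wdr12*, 0.0484 and *Gnl3*, 0.0489), beside 6.29% of all genes in either direction. The weights, which ran from 0.44 for control replicate 1 to 4.96 for *SCL-LMO1* replicate 2, were estimated from these 6 arrays. Under every other alternative run 0 members passed in either direction. The count of members higher at an unadjusted p under 0.05 was 5, beside 6.3% of all genes. That count was 17 with array weights (18.9%) and 3 with a replicate block (4.04%). It ran from 1 to 16 with 1 array left out (2.8% to 13.5%). The replicate block changed no other call of the members. The count without overlap was 3 higher (7.32% of all genes) and 5 after quantile normalization (6.15%). It was 3 to 19 with 1 array left out (9.39% to 19.8%). In the lower direction it was 0 (6.37%), and 1 to 3 with 1 array left out (7.94% to 20.7%). It was 2 each with no filter (6.88%), after quantile normalization (7.21%) and with the mean of probe sets (6.63%). Members with the higher mean numbered 29 (of 40, 60th percentile filter) to 36 and the median difference ran from 0.10 to 0.26. The median of the cell cycle genes, 0.63, was 0.52 after quantile normalization. Of 341 values of 23 named genes under 15 alternatives, 331 kept direction and side of the threshold, 5 passed it and 5 changed sign: *Myc* (-0.0236, quantile normalization), *Mycn* (0.13, array weights, and -0.3111 to 0.0412 with 1 array left out, above 0 without *SCL-LMO1* replicate 1), *Tsr1* (-0.0352, hybridization set as a block) and *Imp4* (-0.0417, mean of probe sets). The causes were not tested. Signal near background limits *Max*, *Mxd1*, *Mycl* and *Polr3g*, and *Nop16* on control replicate 3.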

Other observations

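Genes of the immature thymocyte stage, none of them a member, held the only adjusted call in any of the 11 lists. *Ptcra*, which encodes the invariant chain of the pre-T cell receptor, rose by a log2 difference of 1.28 ± 0.16 in the arrays labelled *SCL-LMO1* (SE, limma adjusted p = 0.0127). This direction rests on the labels, which *Lmo1* went against, and it is opposite to that of *Ptcra* in the gene list published by the study. An exchange of the labels was not tested. The adjusted p was 0.0834 without *SCL-LMO1* replicate 2, 0.108 without *SCL-LMO1* replicate 3, 0.111 without control replicate 2 and 0.0742 with a replicate block, and it ran from 0.000436 to 0.0438 under the other alternatives. The recombinase genes *Rag1* and *Rag2*, which cut the receptor loci, were higher by 0.97 (adjusted p = 0.184) and 0.82 (adjusted p = 0.266), both without overlap between the groups. The list as a whole was even, with 9 of 15 tested genes higher and a median of 0.02, beside 48.7% of all genes and a median of -0.01.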
